A study of Mus musculus with 6 samples.

Results

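Cohesin subunit genes were followed in testis RNA of mice at postnatal day 45, in 3 libraries labelled Msl3 wild type (WT) and 3 labelled Msl3 floxed conditional knockout (cKO). The 10 genes were chosen by symbol as the meiotic subunits Rec8, Rad21l, Stag3 and Smc1b and their mitotic or shared counterparts Rad21, Stag1, Stag2, Smc1a, Smc3 and Pds5b, out of 53700 genes counted in each library. These genes and the gene lists below were chosen with earlier results of these data known. Their counts beside the share over all genes are therefore descriptions only. All 6 libraries carry the strain label Msl3em1Forni/C57BL/6J, and the genotype labels are MSL3 WT and MSL3 cKO. The line that supplies the recombinase, the cells in which it acts and the deleted exons are not given in the sources used here. The labels call the libraries biological replicates.

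Cohesin is a ring that holds sister chromatids together and shapes chromatin loops. Its core is a pair of SMC proteins closed by a kleisin, with a STAG subunit bound to the kleisin. Dividing somatic cells and spermatogonia use SMC1A, SMC3, RAD21 and STAG1 or STAG2. Spermatocytes add germ-line versions, SMC1B in place of SMC1A, REC8 or RAD21L in place of RAD21, and STAG3 in place of STAG1 or STAG2, and these form the chromosome axis on which the synaptonemal complex is built. SMC3 has no meiotic replacement, so it is shared by both kinds of ring. Smc1a and Stag2 lie on the X chromosome, which is transcriptionally silenced in pachytene spermatocytes, whereas the 4 meiotic genes are autosomal.

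None of the 10 genes passed the test of cKO against WT across all genes. The log2 fold change was above 0 for 9 of the 10, beside 50.7% of all genes tested, and for Smc1b, Smc3, Smc1a, Stag1 and Rad21 every cKO library lay above every WT library, while 18.9% of all genes tested had groups that did not overlap. The cKO level was 123.05% of WT for Smc1b, 120.2% for Smc3 and 118.96% for Smc1a, and these were the 3 with an unadjusted p under 0.05, which 13.9% of all genes had. The levels of the meiotic genes relative to their mitotic paralogs overlapped between the groups in all 4 ratios examined. Because whole testes were sequenced, more cells of a type and more RNA per cell cannot be told apart for any of these values.

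The upstream sequences of those 3 SMC genes are shown because they encode the meiotic SMC1, its mitotic paralog and the partner that both share. Each runs 5′ to 3′ on the strand of the gene, ends before the first annotated exon, and comes from RefSeq (GRCm38.p6). Capitals mark the hexamer GCGGGA or its reverse complement TCCCGC, the core of E2F binding sites.
Smc1b (chr15:85131965-85132207, minus strand): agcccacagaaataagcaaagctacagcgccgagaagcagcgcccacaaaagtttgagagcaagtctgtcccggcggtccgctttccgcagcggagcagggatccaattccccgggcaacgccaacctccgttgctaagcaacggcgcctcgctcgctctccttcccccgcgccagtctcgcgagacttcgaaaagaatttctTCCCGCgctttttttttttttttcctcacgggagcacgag
Smc1a (chrX:152016178-152016427, plus strand): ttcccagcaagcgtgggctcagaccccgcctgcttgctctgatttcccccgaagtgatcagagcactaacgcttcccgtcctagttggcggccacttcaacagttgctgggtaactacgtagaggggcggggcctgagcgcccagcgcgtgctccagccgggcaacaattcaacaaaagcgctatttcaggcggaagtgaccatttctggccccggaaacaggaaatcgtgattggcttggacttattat
Smc3 (chr19:53600146-53600395, plus strand): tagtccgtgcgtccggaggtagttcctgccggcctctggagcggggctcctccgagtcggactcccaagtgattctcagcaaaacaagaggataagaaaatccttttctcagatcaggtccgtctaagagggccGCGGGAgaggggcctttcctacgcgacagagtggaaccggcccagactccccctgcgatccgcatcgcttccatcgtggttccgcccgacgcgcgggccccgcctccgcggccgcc

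Smc1b and Smc3 each hold 1 such hexamer in the printed stretch and Smc1a holds 0. A RefSeq window was found for 8 of the 10 members. In that full window of 300 bases, which runs past the start site, the hexamer on either strand occurred in 19.98% of 32851 mouse promoter windows. The hexamer was found 1 time each for Smc1b, Smc1a, Rec8, Stag3, Stag1 and Pds5b, 2 times for Smc3 and 0 times for Rad21l. Other motifs were counted too. The CCAAT box, in 37.41% of all windows, was in every member window found but that of Smc3. The GC box, in 35.66% of all windows, was in those of Stag3, Stag1, Smc1a, Smc3 and Pds5b. No share among windows of like CpG content was computed. The windows also differed in CpG dinucleotides, of which Rad21l had 2 and the other 7 members found had 18 to 43. A match is a description of these letters only.

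Each library held 56991431 to 73766444 reads assigned to genes. A further 14.8% to 16.7% of the reads of a library were not assigned to a single gene, a share that includes unmapped and multi-mapped reads. The targeted gene Msl3 had 942, 1226 and 990 reads in WT 1 to 3 and 1170, 829 and 923 in cKO 1 to 3, with a log2 fold change of -0.12 (SE 0.088, edgeR quasi-likelihood adjusted p = 0.551). The gene count thus overlapped between the groups, and the groups are named by their labels. Across all 21902 genes tested, 4 (0.0183%) passed an adjusted p of 0.05, 13.9% had an unadjusted p under 0.05, and 18.9% had groups that did not overlap. The number that passed was 628 without cKO 1, 757 without the filter on low counts, 193 with DESeq2 and 49 with a replicate block. Every germ-cell marker of the testis examined had reads, and spermatocyte genes such as Sycp3 (185 CPM in WT) and Piwil1 (436 CPM in WT), picked as examples after their values were seen, were abundant.

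Levels were first ordered within the family. CPM, the usual measure of reads relative to library size, was taken on scaled library sizes, and only CPM per kilobase of merged exons was used to compare genes with each other. Stag3 had the highest level per kilobase, 96.5 ± 3.13 (SD, n = 3) in WT and 100.04 ± 4.14 (SD, n = 3) in cKO. Smc1b followed, with 54.8 ± 1.79 (SD, n = 3) and 67.4 ± 9.28 (SD, n = 3). Rec8 had 26.2 ± 0.576 (SD, n = 3) in WT, and Rad21 had 24.4 ± 0.156 (SD, n = 3). These neighbours differed by only 1.07-fold in WT, though their 3 WT libraries did not overlap on this scale.

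Smc3 came next, with 15.3 CPM per kilobase in WT, and then Stag1 with 6.64, Pds5b with 5.42 and Stag2 with 4.96. Rad21l, the kleisin of early meiotic prophase, stood ninth with 3.02 ± 0.396 (SD, n = 3). Smc1a was lowest with 1.84 ± 0.133 (SD, n = 3). The order was identical in cKO and with the longest transcript as the length, although Stag1 then had 12.7 CPM per kilobase in WT. Among neighbours in the order, Pds5b and Stag2 had overlapping libraries in both groups, and the other neighbours did not overlap.

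**Figure D1:**
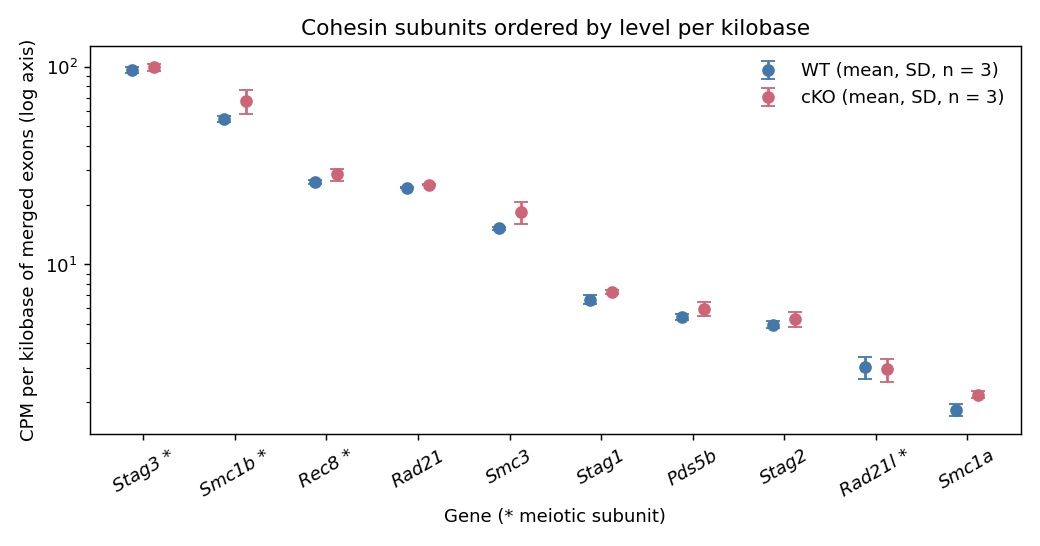
CPM per kilobase of merged exons on a log axis for the 10 cohesin genes, ordered by the WT mean, with points for group means and bars for SD (n = 3 libraries per group). Stag3 and Smc1b lead at 96.5 and 54.8 in WT, Smc1a is lowest at 1.84, and the order is the same in both groups.

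The makeup of each subunit class was described on the same scale. Smc1b supplied 96.8% ± 0.158 (SD, n = 3) of the summed level per kilobase of Smc1b and Smc1a in WT and 96.8% ± 0.302 (SD, n = 3) in cKO. Stag3 supplied 89.3% ± 0.181 (SD, n = 3) of the STAG class in WT and 88.8% ± 0.633 (SD, n = 3) in cKO. Among kleisins, Rec8 and Rad21l together supplied 54.5% ± 0.617 (SD, n = 3) in WT and 55.3% ± 1.70 (SD, n = 3) in cKO. The meiotic version was thus the main one in the SMC1 and STAG classes. With merged-exon length, Rad21 made up nearly as much of the kleisin class as the meiotic kleisins did. With the longest transcript as length, the WT shares were 96.0%, 85.99% and 59.4%, so the kleisin class was then less even.

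The meiotic subunits were then compared between cKO and WT. Smc1b (ENSMUSG00000022432, chr15:85064689-85131964, protein coding, minus strand), the meiotic SMC1, had 229, 222 and 214 CPM in WT 1 to 3 and 238, 312 and 268 CPM in cKO 1 to 3. The groups did not overlap, and cKO 2 was the highest library while cKO 1 lay close to WT. The log2 fold change was 0.30 (SE 0.091, 95% limits 0.10 and 0.50), with an unadjusted p of 0.00645 and an edgeR quasi-likelihood adjusted p of 0.288. Without cKO 1 the log2 fold change was 0.39 and passed the threshold (edgeR adjusted p = 0.0223), and without cKO 2 it was 0.19.

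Stag3 (ENSMUSG00000036928, chr5:138280240-138312393), the meiotic STAG subunit, had 573, 538 and 549 CPM in WT 1 to 3 and 576, 596 and 549 CPM in cKO 1 to 3. The groups overlapped, since cKO 3 lay below WT 1 and WT 3. Its log2 fold change was 0.05 (95% limits -0.09 and 0.19, edgeR adjusted p = 0.761), which places the cKO level between 94.01% and 114.3% of WT.

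Rec8 (ENSMUSG00000002324, chr14:55618037-55625395), the kleisin that keeps sister centromeres together to the second meiotic division, had 78.8, 76.9 and 75.4 CPM in WT 1 to 3. It had 88.2, 86.2 and 77.1 CPM in cKO 1 to 3, and cKO 3 lay within the WT range. This gave a log2 fold change of 0.12 (95% limits -0.03 and 0.28, edgeR adjusted p = 0.455).

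Rad21l (ENSMUSG00000074704, chr2:151645404-151668533) had the fewest reads of the family, 338, 291 and 299 in WT 1 to 3 and 407, 241 and 277 in cKO 1 to 3. In CPM these were 5.75, 4.48 and 4.81 against 5.58, 4.31 and 4.74, with the groups fully interleaved. Its log2 fold change of -0.04 was the only negative one of the family, with 95% limits of -0.32 and 0.25 (edgeR adjusted p = 0.931). Its sign turned without WT 1 (0.08) and without cKO 2 (0.05).

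Among the mitotic or shared subunits, Smc3 (ENSMUSG00000024974, chr19:53600398-53645833), the partner of both SMC1 proteins, had 86.5, 83.9 and 84.0 CPM in WT 1 to 3 and 89.1, 116 and 100.8 CPM in cKO 1 to 3. The groups did not overlap, and the WT libraries lay close together while cKO 2 stood highest. The log2 fold change was 0.27 (SE 0.088, 95% limits 0.07 and 0.46), with an unadjusted p of 0.0111 and an edgeR adjusted p of 0.298. Without cKO 1 it was 0.35 and passed (edgeR adjusted p = 0.0282), and without cKO 2 it was 0.16.

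Smc1a (ENSMUSG00000041133, chrX:152016428-152062694), the mitotic SMC1, had 11.5, 10.1 and 10.3 CPM in WT 1 to 3 and 12.2, 13.2 and 12.5 CPM in cKO 1 to 3. All cKO libraries lay above all WT libraries. The log2 fold change was 0.25 (SE 0.086, 95% limits 0.06 and 0.44), with an unadjusted p of 0.0132 and an edgeR adjusted p of 0.3003. Stag2 (ENSMUSG00000025862, chrX:42149317-42277185), the other X-linked member, had 39.6, 43.0 and 40.5 CPM in WT and 39.1, 46.3 and 45.7 CPM in cKO, with overlapping groups. Its log2 fold change was 0.09 (95% limits -0.08 and 0.27, edgeR adjusted p = 0.640). The 856 X-linked genes tested had a median of -0.06.

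Stag1 (ENSMUSG00000037286, chr9:100597798-100959375), the other mitotic STAG subunit, had 82.6, 74.2 and 78.0 CPM in WT 1 to 3 and 83.8, 87.0 and 85.9 CPM in cKO 1 to 3. The groups did not overlap, though WT 1 lay just under cKO 1. Its log2 fold change was 0.13 (95% limits -0.02 and 0.27, edgeR adjusted p = 0.406). Rad21 (ENSMUSG00000022314, chr15:51962240-51991747), the mitotic kleisin, was the steadiest member, with 104, 103 and 103 CPM in WT and 107, 109 and 107 CPM in cKO. Its groups also did not overlap, but the log2 fold change was 0.06 (95% limits -0.08 and 0.19, edgeR adjusted p = 0.721).

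Pds5b (ENSMUSG00000034021, chr5:150673739-150810690), a regulatory subunit that binds the ring and helps both to stabilise and to release it, had 54.3, 50.9 and 54.7 CPM in WT 1 to 3. It had 54.3, 63.4 and 58.3 CPM in cKO 1 to 3, where cKO 1 lay within the WT range. The log2 fold change was 0.14 (95% limits -0.02 and 0.30, edgeR adjusted p = 0.427).

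**Figure D2:**
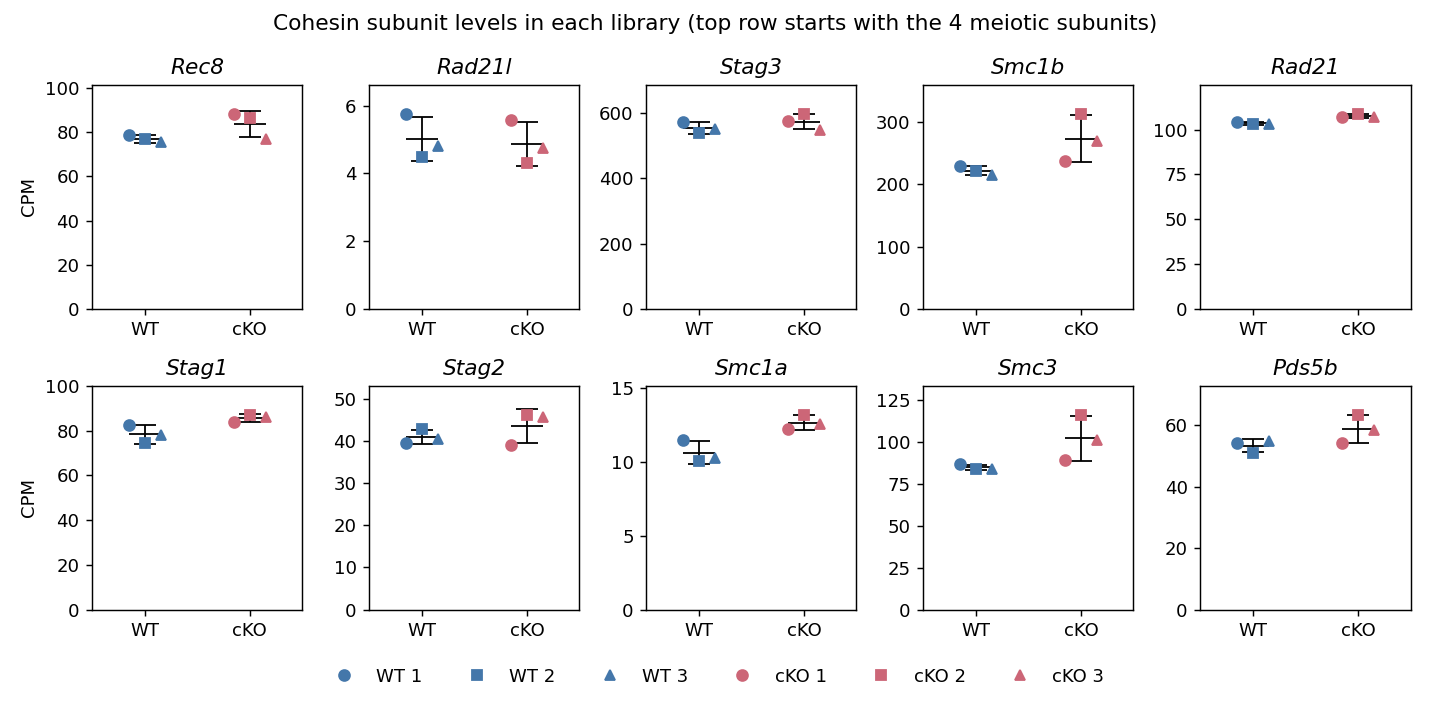
CPM of each cohesin gene in each library, with horizontal marks and bars for the group mean and SD (n = 3), and each axis starting at 0. Smc1b and Smc3 have tight WT libraries and a cKO group that runs from 238 to 312 and from 89.1 to 116 CPM, with cKO 2 highest.

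Over the family, 5 of 10 members had groups that did not overlap, each with cKO above WT, and the other 5 overlapped. Over all genes tested, 18.9% did not overlap, 2201 with cKO above WT and 1938 below. At an unadjusted p under 0.05, 3 of 10 members were higher and 0 lower, beside 7.33% and 6.54% of all genes. The median log2 fold change was 0.13 over the 10 members and 0.00311 over all genes tested. With a correction for GC content and transcript length the members' median was 0.06, with Pds5b at 0.03, Stag1 at 0.05 and Stag2 at 0.03, and without cKO 2 it was 0.09. The members were chosen with earlier results of these data known. They share libraries and are not independent of each other: 8 of the 10 had their highest level in cKO 2, Rec8 in cKO 1 and Rad21l in WT 1.

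Paralog ratios within a library do not depend on library size, and they were used to ask whether the balance of meiotic to mitotic subunits differed. The log2 ratio of reads of Smc1b to Smc1a was 4.31, 4.46 and 4.38 in WT 1 to 3 and 4.28, 4.57 and 4.42 in cKO 1 to 3. These overlapped, with a difference of 0.04 (exact two-sided permutation p = 0.7). The ratio of Rec8 to Rad21 was -0.40, -0.42 and -0.45 in WT and -0.28, -0.33 and -0.47 in cKO, a difference of 0.07 (exact permutation p = 0.4).

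The ratio of Rad21l to Rad21 had a difference of -0.10 (exact permutation p = 0.6). The ratio of Stag3 to Stag1 plus Stag2 was 2.23, 2.20 and 2.21 in WT and 2.23, 2.16 and 2.06 in cKO, a difference of -0.06 (exact permutation p = 0.3), with cKO 3 lowest. All 4 ratios overlapped between the groups, and each Benjamini-Hochberg value over the 4 was 0.7. The smallest p that this design allows is 0.1.

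**Figure D3:**
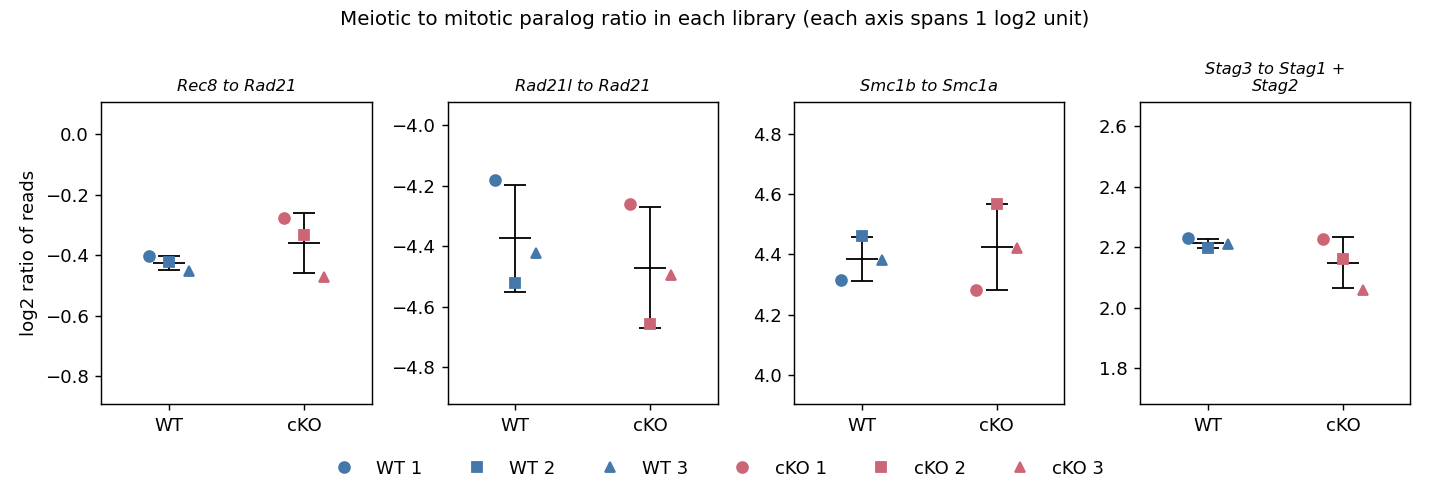
Log2 ratio of reads of each meiotic gene to its mitotic paralog or paralogs in each library, with marks and bars for the group mean and SD (n = 3), each axis spanning 1 log2 unit. WT and cKO libraries overlap in all 4 panels.

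Some members also varied together across libraries. Of 45 pairs, Smc1b and Smc3 had the highest Pearson correlation of log2(CPM + 0.5) over the 6 libraries, 0.995 (exact permutation p = 0.00278, Benjamini-Hochberg 0.025), with a Spearman rho of 0.943 (exact permutation p = 0.0167, Benjamini-Hochberg 0.0750). Without cKO 2 and cKO 3, the libraries farthest from the median of Smc1b, r was 0.939. Not every pair held in this way: Smc3 with Pds5b had r = 0.952, and 0.451 without the same libraries. Stag1 with Smc1a had r = 0.970 and Rad21 with Smc1a r = 0.967, each with a rho of 1 (exact permutation p = 0.00139 for r and 0.00278 for rho). A rho of 1 was also found for Rad21 with Stag1 (r = 0.899) and Rad21 with Smc3 (r = 0.889). The same held for Smc1a with Smc3 (r = 0.848) and Stag1 with Smc3 (r = 0.782). Both group differences and shared library properties enter these values and their p, since the permutation ignored the groups. With 3 libraries per group no correlation within a group was computed. The share of such correlations over pairs of other genes was not computed either. Rad21l went the other way with Stag2, with r = -0.83 (exact permutation p = 0.0556, Benjamini-Hochberg 0.147), the lowest r of the 45 pairs. Without WT 1 and cKO 1, the libraries farthest from the median of Rad21l, r was -0.56.

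Against the mean log2 level of the 4 meiotic genes, the most alike of 16821 other genes with at least 1 CPM were Ddx27 (r = 0.994), Dnm2 (r = 0.994) and Pnpla2 (r = 0.994). Over these 6 libraries 646 genes had r above 0.9. These 3 genes had log2 fold changes of 0.16, 0.12 and 0.13 (edgeR adjusted p = 0.357, 0.436 and 0.397).

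Cell-type markers, in lists also chosen with earlier results of these data known, were read beside these values. Of the 6 elongating spermatid markers 4 were lower in cKO, and their summed level was 15072 to 16479 CPM in WT and 12613 to 15701 CPM in cKO, lowest in cKO 2, where Smc1b and Smc3 were highest. Of the 5 round spermatid markers 4 were lower, with sums of 987 to 1091 CPM in WT and 942 to 975 CPM in cKO. At an unadjusted edgeR p under 0.05, 3 of 5 round and 2 of 6 elongating markers were lower and 0 higher, beside 13.9% of all genes in either direction. Groups did not overlap for 2 of 5 and 1 of 6, beside 18.9% of all genes. None of either list passed the adjusted threshold, and none was at 0.

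Markers of spermatocytes, the cells that make meiotic cohesin, were read in the same way. Of the 6 early prophase markers 3 were higher and 3 lower, with sums of 634 to 680 CPM in WT and 628 to 694 CPM in cKO. Of the 5 pachytene markers 4 were higher, with sums of 6178 to 6408 CPM in WT and 6021 to 6549 CPM in cKO. Most of that sum was Ldhc (3859 CPM in WT), the only lower one. Besides the elongating spermatid sum, the pachytene sum (6021 CPM) and the Leydig sum (709 CPM) were lowest in cKO 2. The sums of the other marker lists were lowest in other libraries. All 6 Sertoli markers had positive log2 fold changes, with sums of 220 to 247 and 227 to 267 CPM. At an unadjusted edgeR p under 0.05 there were 0 of 6 early prophase, 1 of 5 pachytene and 2 of 6 Sertoli markers, beside 13.9% of all genes. Groups did not overlap for 1 of 6, 1 of 5 and 2 of 6, beside 18.9% of all genes. The part of these markers in the cohesin values was not tested.

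**Figure D4:**
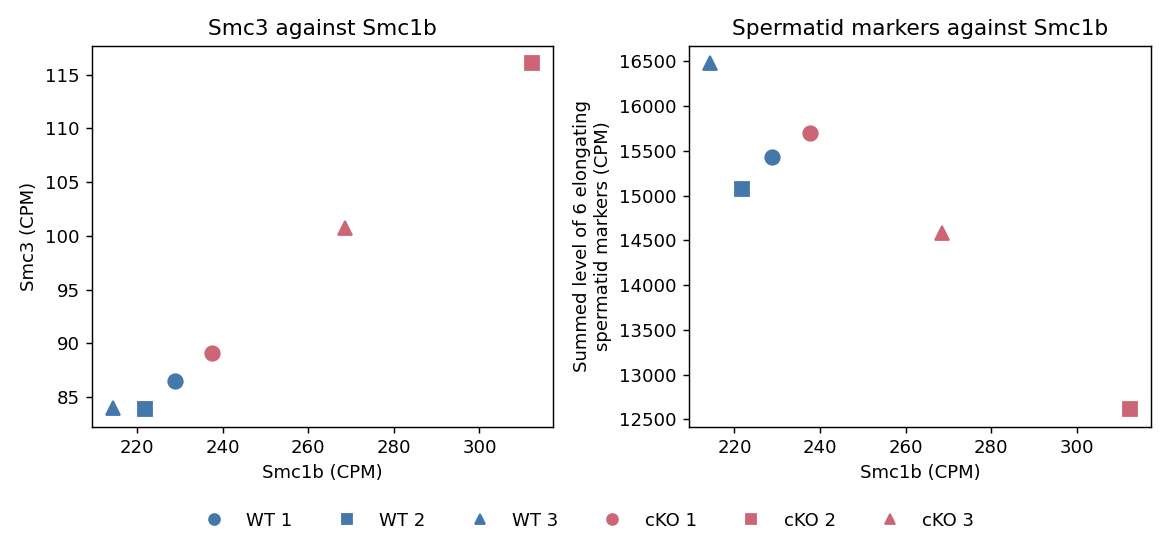
Left, Smc3 against Smc1b in CPM, and right, the summed CPM of 6 elongating spermatid markers against Smc1b, with 1 point per library and axes that do not start at 0. Smc1b and Smc3 are both highest in cKO 2 (312 and 116 CPM), the library with the lowest elongating spermatid sum (12613 CPM). The pachytene and Leydig marker sums, not drawn, were also lowest in cKO 2.

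Genes that act on or with cohesin were compared as a list of 15, all of which were tested. The list held genes of loading, release, acetylation, protection and cleavage, and also Hdac8, Ctcf and Ctcfl. Of the 15 genes 9 were higher and 6 lower in cKO, 0 passed, and the median log2 fold change was 0.04. At an unadjusted p under 0.05 there were 3 of 15, beside 13.9% of all genes, all higher: Wapl, Pds5a and Espl1. Groups did not overlap for 1 of 15, beside 18.9% of all genes. This was Pds5a, the paralog of Pds5b, with 57.3, 57.2 and 58.7 CPM in WT and 60.0, 69.8 and 64.0 CPM in cKO (log2 fold change 0.16, edgeR adjusted p = 0.350).

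Nipbl, the cohesin loader, had 390, 436 and 400 CPM in WT 1 to 3 and 375, 622 and 512 CPM in cKO 1 to 3. Its cKO 1 library was the lowest of all 6 and its cKO 2 library the highest, and the log2 fold change of 0.30 had 95% limits of -0.00156 and 0.60 (edgeR adjusted p = 0.363). Wapl, which opens the ring to release it, was also highest in cKO 2, with 195, 187 and 183 CPM in WT and 189, 249 and 215 CPM in cKO (log2 fold change 0.21, edgeR adjusted p = 0.348). Espl1, the separase that cuts the kleisin at anaphase, was chosen after its values were seen and had a log2 fold change of 0.21 (edgeR adjusted p = 0.310).

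The remaining regulators were not called either. Ctcfl, the testis paralog of the insulator protein CTCF, had 1.73 ± 0.249 CPM (SD, n = 3) in WT and 1.99 ± 0.115 CPM (SD, n = 3) in cKO (log2 fold change 0.20, edgeR adjusted p = 0.567). The loader partner Mau2 had a log2 fold change of -0.00848, the acetyltransferases Esco1 and Esco2 -0.03 and -0.00130, and the meiotic kinetochore protein gene Meikin 0.02, with an edgeR adjusted p of at least 0.880 for these 4. They were chosen after their values were seen.

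The other SMC complexes gave a further point of comparison. Of 15 condensin and SMC5/6 genes, all tested, 10 were higher and 5 lower, 0 passed, and the median log2 fold change was 0.09. Groups did not overlap for 5 of 15, beside 18.9% of all genes, with Ncapd2, Smc5 and Smc6 above WT and Nsmce1 and Nsmce4a below. At an unadjusted p under 0.05 there were 5 of 15, beside 13.9% of all genes, with Ncapd2, Ncapg2 and Smc5 higher and Nsmce1 and Nsmce4a lower. Ncapd2, a condensin I subunit, had 118, 108 and 116 CPM in WT and 127, 131 and 130 CPM in cKO (log2 fold change 0.18, edgeR adjusted p = 0.305).

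Smc5, a core SMC protein of the SMC5/6 complex, had 213, 203 and 199 CPM in WT and 215, 247 and 230 CPM in cKO (log2 fold change 0.17, edgeR adjusted p = 0.323). Its complex partners Nsmce1 and Nsmce4a had values in the other direction, 159, 173 and 156 against 149, 133 and 143 CPM for Nsmce1 and 29.2, 30.1 and 29.2 against 27.6, 24.7 and 25.8 CPM for Nsmce4a. Their log2 fold changes were -0.20 and -0.18 (edgeR adjusted p = 0.305 and 0.318). Smc6 and Ncapg2, named after their values were seen, had log2 fold changes of 0.14 and 0.21 (edgeR adjusted p = 0.381 and 0.313).

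**Figure D5:**
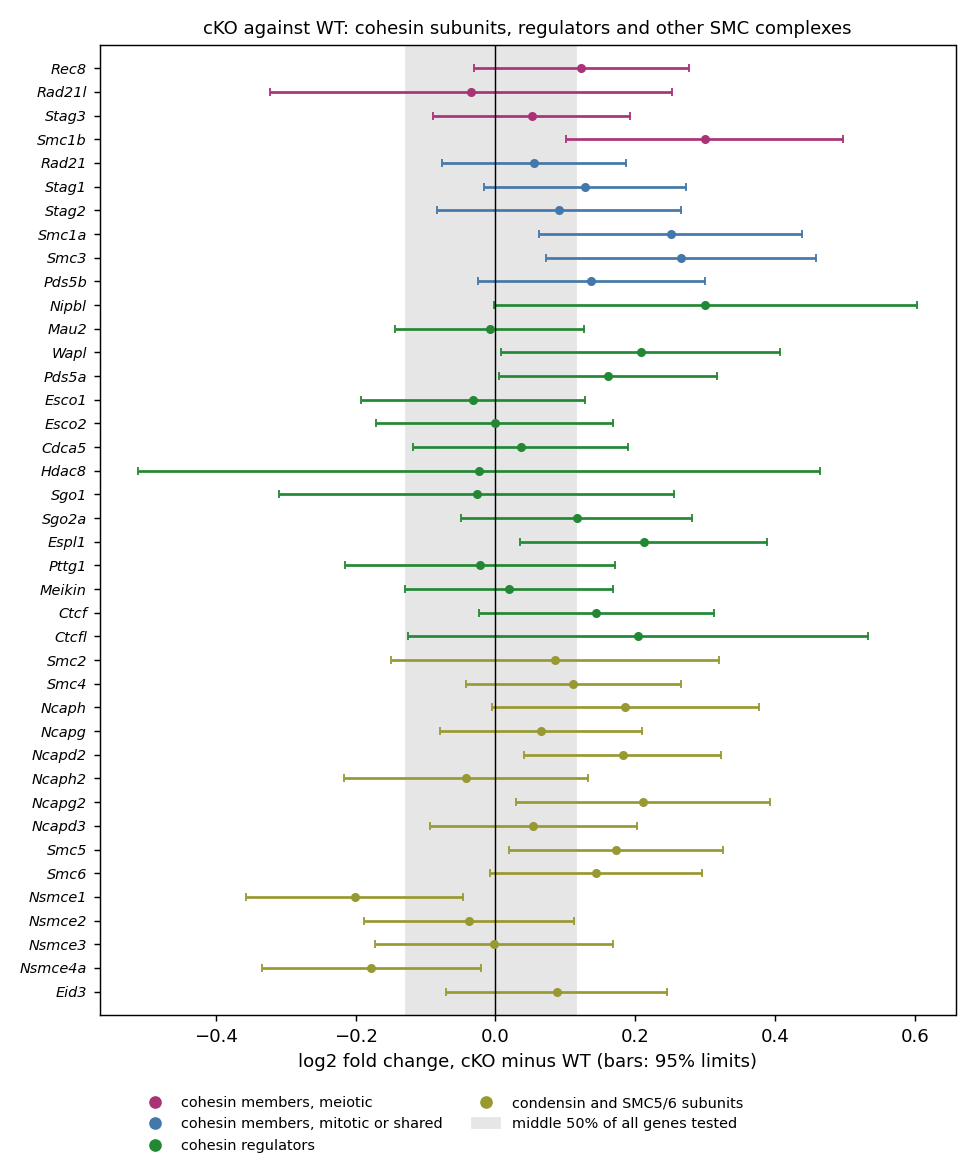
Log2 fold change of cKO minus WT with 95% limits from the edgeR fit for the 10 cohesin subunits, 15 cohesin regulators and 15 condensin and SMC5/6 genes, with a grey band for the middle 50% of all genes tested. Limits of Smc1b, Smc3 and Smc1a lie above 0 before adjustment, at 0.10 to 0.50, 0.07 to 0.46 and 0.06 to 0.44, as do those of Wapl, Pds5a, Espl1, Ncapd2, Ncapg2 and Smc5, while those of Nsmce1 and Nsmce4a lie below 0, and none of the genes shown passed the adjusted threshold.

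The counts were also examined for reads that could belong to another gene. Of the words of 75 bases in the transcripts of each member, 0.329% of those of Smc3 also occurred in another gene, Gm11204, and 0% for the other 9. Only Stag2 had an exon overlapping another gene, 28 bases of Gm37564 on the opposite strand. Reads on the wrong strand made up 0.0539% to 0.407% of the stranded reads of a member.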

How the data were processed

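The authors deposited 1 table of raw read counts per gene for each of 6 whole-testis libraries, single-end reads of 75 bases per the labels' protocols, in the layout of STAR gene counts, and the submitters' processing notes name STAR, HTSeq, DESeq2 and mm10. Versions, annotation release and filters are not given in the sources used here. The opposite-strand count column held 96.0% to 96.2% of stranded reads and was used. The 4 summary lines were left out. GENCODE M21 (GRCm38, the assembly of mm10) gave symbols and positions for 52147 of 53700 identifiers.

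Differential expression used edgeR 4.0.16 in R 4.3.3 (TMM, filterByExpr with minimum count 10, quasi-likelihood F test, no covariates, Benjamini-Hochberg over 21902 genes, threshold 0.05). All 10 members passed the filter. SEs came from the F statistic. Levels are CPM computed here. Ratios used exact two-sided permutation tests (Python 3.11.15). The fit was tested on simulated data. A first limit on the share of changed genes recovered over all levels was not met, the misses being genes with few reads. The check was then placed on the bias of the estimates and on recovery in genes of higher level. The members and lists were chosen with earlier results of these data known. Named genes were all members, Msl3, Pds5a, Nipbl, Wapl, Ctcfl, genes of the regulator and the condensin and SMC5/6 lists without overlap and with an unadjusted p under 0.05 (at most 6 per list), and the 3 genes most like the meiotic mean.

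Alternatives were RLE scaling, library totals alone, no filter, at least 10 reads in every library, unstranded counts, a replicate block, a robust fit, DESeq2 1.42.0, a loess correction for GC content and transcript length (span 0.3), each library left out, and longest-transcript lengths. The marker lists were spermatogonia, early prophase, pachytene, round and elongating spermatids, Sertoli, Leydig, myoid, macrophage and endothelial genes. The lists not described in the results had 0 genes past the threshold, with medians of 0.10 (spermatogonia), -0.08 (Leydig), -0.02 (myoid), -0.10 (macrophages) and 0.25 (endothelium).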

Additional observations from a re-analysis of the deposited data

How the results depend on the processing

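Over the 10 members and 15 alternative settings, 143 of 150 values kept their direction and their side of the threshold. Smc1b passed without the filter on low counts (log2 fold change 0.29, edgeR adjusted p = 0.0188) and, with Smc3, without cKO replicate 1. Thus 1 member passed in the former setting, and 0 to 2 when a single library was omitted. Rad21l turned with the GC content and length correction (0.062), and with a library omitted it ran from -0.15 to 0.075, turning without WT replicate 1 or cKO replicate 2. Stag3 turned with that correction (-0.00896). Sizes moved too: 5 of 10 members moved by over 1.5 times or turned with the correction, 3 with library totals alone and 6 without cKO replicate 2, where Pds5b was 0.08, Stag2 0.05, Stag3 0.02, Smc1b 0.19 and Smc3 0.16. The cause was not tested.

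All 6 libraries gave 4 genes past the threshold, against 757 without the filter, 2 with unstranded counts and 193 with DESeq2. Omitting a single library gave 1 to 628, the highest without cKO replicate 1. DESeq2 called 0 members.

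The labels state no pairing, so the replicate number was not used as one in the main fit. Libraries of the same number had deviations that correlated at 0.38, 0.26 and -0.07 across genes. These values do not settle whether the numbers mark pairs. A replicate block gave 49 genes and 0 members. With the block Smc1b had an edgeR adjusted p of 0.0973, against 0.288 without it. For the 4 paralog ratios, the mean paired difference always equals the difference of the group means, so pairing could change only p. The paired permutation flipped the signs of the 3 paired differences, so its p cannot fall below 0.25. Without pairing the lowest possible exact permutation p is 0.1, so the 2 kinds of p are not on a like scale. For Rec8 to Rad21, pairing gave exact permutation p = 0.5, against exact permutation p = 0.4 without it. For Rad21l to Rad21 these were exact permutation p = 0.25 and exact permutation p = 0.6. For Smc1b to Smc1a they were exact permutation p = 0.5 and exact permutation p = 0.7. For Stag3 to Stag1 plus Stag2 they were exact permutation p = 0.25 and exact permutation p = 0.3. With a library omitted, the ratio difference ran from -0.20 to 0.00128 for Rad21l to Rad21 and from -0.033 to 0.11 for Smc1b to Smc1a, so both turned, and the other 2 kept their direction.

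With the longest transcript as length the WT levels per kilobase were 118.5 for Stag3, 35.3 for Rec8, 26.1 for Rad21, 17.5 for Smc3, 12.7 for Stag1, 7.19 for Pds5b, 6.65 for Stag2 and 2.26 for Smc1a, in the same order. Rad21l, with 241 to 407 reads, has the widest limits of the members.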
